A study of Canis lupus familiaris with 11 samples.

Results

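The secreted Wnt inhibitors described here are the 8 genes SFRP1, SFRP2, SFRP4, FRZB, DKK1, DKK2, DKK3 and WIF1, out of 15947 genes measured on canine arrays. A gene was taken in by its symbol alone, and each of the 8 was represented by a single array feature, out of 32391 features in all. RNA came from stromal vascular fraction (SVF), the mixed pellet of stromal, vascular and immune cells that is left when fat is digested. The fat was visceral adipose tissue.

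In dog 3 and dog 2, 1 company digested the fat and the cells were profiled in 4 groups of 2 arrays. The groups were dog 3 PRP, dog 3 SVF, dog 2 PRP and dog 2 SVF. PRP stands for cells given photo-activated platelet-rich plasma and then held for 6 h at 37 degrees. SVF here stands for cells of the same dog with no incubation. PRP and incubation always went together, so each difference belongs to the pair of them. The titles name 2 dogs, while the labels describe both alike as 10 year old neutered male German Shepard mixes. The animal, its tissue and its preparation therefore cannot be told apart in a difference between the dogs. A further animal, a 6 year old neutered male Labrador, gave portions of about 20 g of fat to companies B, C and A. Each company used its own digestion, and the cells were frozen, thawed and profiled untreated on 1 array per company. With so few arrays per group, only large or very even differences can pass a test.

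Wnt proteins are secreted ligands that bind frizzled receptors together with the co-receptors LRP5 and LRP6, and this binding stabilises beta-catenin, which then acts with TCF and LEF factors on transcription. Secreted inhibitors act outside the cell in different ways. The frizzled-related proteins SFRP1, SFRP2, SFRP4 and FRZB carry a cysteine-rich domain like that of frizzled receptors and bind Wnt ligands, as does WIF1 through a domain of its own. DKK1 and DKK2 bind LRP5 and LRP6 instead, while DKK3 is a divergent member of the Dickkopf family. In mouse and human fat, canonical Wnt signalling is known to hold back the differentiation of pre-adipocytes, and several of these inhibitors are made by stromal cells.

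The labelled cell source was checked against markers. Of 12 adipose stromal markers, 11 lay above the array median on all 8 arrays of the dogs and 12 on all 3 company arrays. Of 9 adipocyte markers measured, 9 did so on the 8 arrays of the dogs and 4 on the company arrays. Adipocytes are not among the cells of SVF as described above, so the markers match the label only in part. The source of the adipocyte RNA was not tested. The arrays of dog 3 PRP differed most from each other, with a root mean square difference of 0.516 log2 units, and in the other 3 groups this spread lay between 0.347 and 0.365. Among the inhibitors, SFRP2 lay above the array median on 2 of the 8 arrays and DKK1 on 1, while the other members did so on all 8. A dim feature carries a less certain level.

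**Figure D1:**
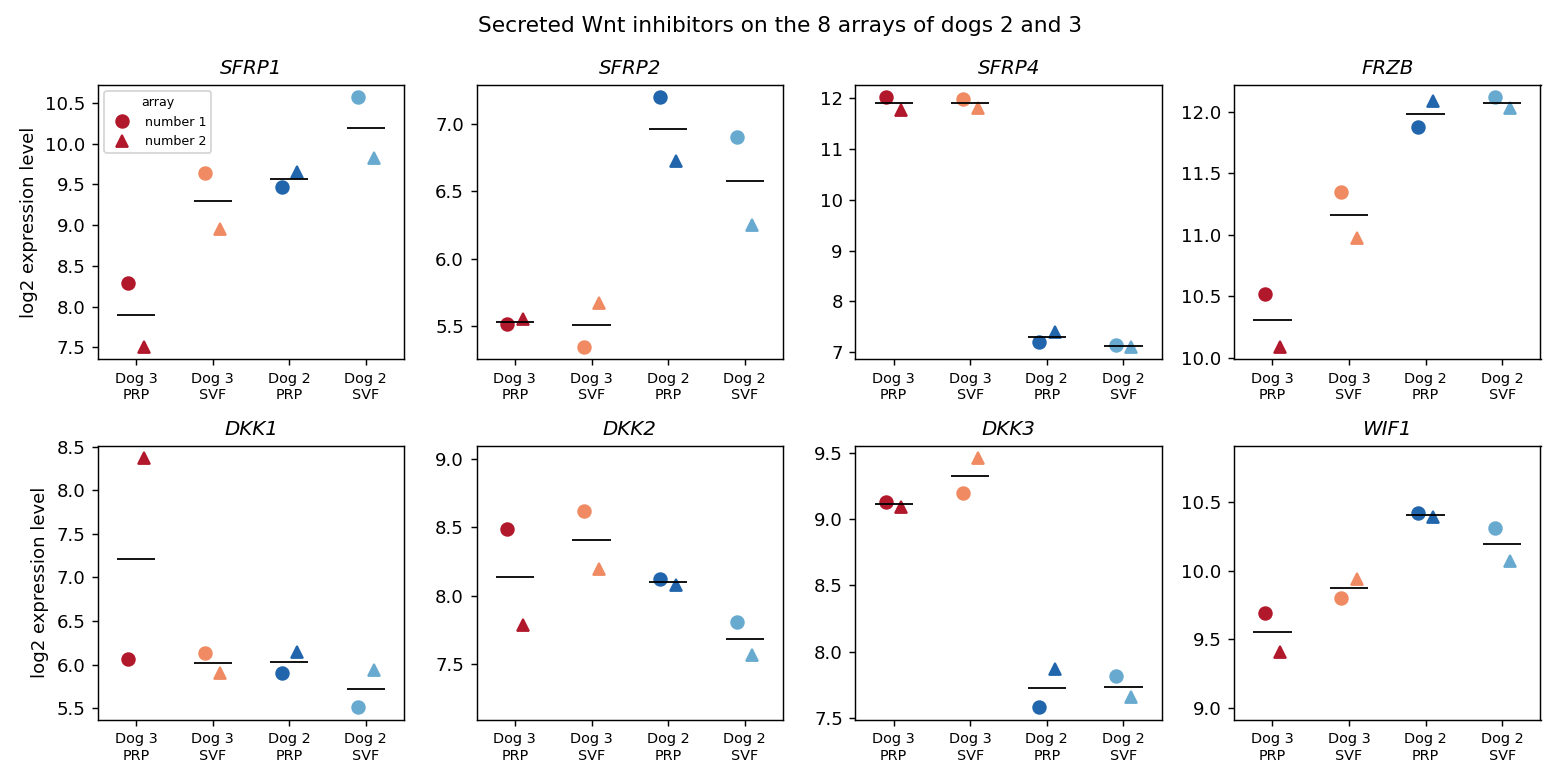
Log2 expression level (vertical axis, with its own range in each panel) of the 8 secreted Wnt inhibitors on the 8 arrays of the dogs, by group along the horizontal axis. Circles are number 1 arrays, triangles number 2 arrays and bars the means of 2 arrays. SFRP4 lies at 11.78 or above on the dog 3 arrays and at 7.40 or below on the dog 2 arrays, and DKK1 has 1 high array, dog 3 PRP array 2.

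The first comparison asked what PRP with incubation did to the inhibitors. None of the 8 passed the test in the mean of both dogs (limma, adjusted over all features), against 0.00617% of all features. At an unadjusted p under 0.05 there were 2, SFRP1 and FRZB, both lower in PRP. The shares over all features were 9.45% in either direction and 6.58% lower, and over all genes 8.32% and 5.21%. Expression is that of a mixed cell pellet, so fewer cells of a type and less RNA per cell cannot be told apart. The labels do not say whether the 2 samples of a group were prepared separately, so a p-value here weighs a difference against a spread that may be technical.

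SFRP1, a frizzled-related protein that binds Wnt ligands, read 8.29 and 7.51 in dog 3 PRP against 9.64 and 8.95 in dog 3 SVF, and 9.47 and 9.65 in dog 2 PRP against 10.57 and 9.83 in dog 2 SVF. Both PRP arrays lay below both SVF arrays in each dog, a pattern that 8.21% of all features shared. Of the 8 inhibitors, only SFRP1 kept its PRP and SVF arrays apart in the same direction in both dogs. The mean difference of PRP minus SVF was -1.02 ± 0.26 log2 units (SE), or 2.02-fold lower in PRP, with an interval of -1.62 to -0.41. It did not pass the test (limma, adjusted p = 0.389, unadjusted p = 0.0051). The difference was -1.40 in dog 3 and -0.64 in dog 2. Taken by same-numbered arrays it was -1.35 and -1.44 in dog 3 and -1.10 and -0.18 in dog 2, so the second pair of dog 2 differed least.

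FRZB, a frizzled-related protein first known from cartilage, read 10.52 and 10.09 in dog 3 PRP against 11.35 and 10.98 in dog 3 SVF, and 11.87 and 12.09 in dog 2 PRP against 12.12 and 12.03 in dog 2 SVF. The PRP arrays lay below the SVF arrays in dog 3, and the groups overlapped in dog 2. The difference was -0.86 in dog 3 and -0.09 in dog 2, with a mean of -0.47 ± 0.16 log2 units (SE) that did not pass the test (limma, adjusted p = 0.466). Set against each other in the fit, the responses of the dogs differed by -0.77 ± 0.31, at an unadjusted p of 0.0412 and an adjusted p of 0.9999 in limma. For that test 0 of the 8 inhibitors and 0% of features passed the adjusted threshold. The unadjusted one was met by 1 inhibitor and 1.91% of features.

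Markers of several cell types differed beside these values. Of 9 adipocyte markers measured, 9 were lower in PRP in the mean of both dogs, by a median of 0.74 log2 units (6 at an unadjusted p under 0.05, none after adjustment). The mean level of that list was 9.52 and 10.00 in dog 3 PRP, 10.63 and 10.88 in dog 3 SVF, 11.13 and 11.28 in dog 2 PRP, and 11.53 and 11.88 in dog 2 SVF. PLIN4, a coat protein of lipid droplets, differed most, at -1.62. Pericyte and smooth muscle markers were lower in 9 of 10 genes, by a median of 0.30, with 4 at an unadjusted p under 0.05 and none after adjustment. Endothelial markers were lower in 7 of 10 and higher in 3, with a median of -0.31, 1 at that unadjusted threshold and none after adjustment. B cell markers were higher in 5 of 6, by a median of 0.31, with 1 and none. T and NK cell markers were higher in 10 of 10, by a median of 0.45, with 3 at an unadjusted p under 0.05 and none after adjustment. Platelet markers were higher in 4 of 5, by a median of 0.12, and PPBP, at 2.71, passed the adjusted test. Erythroid markers were higher in 3 of 3, by a median of 0.53, with none past it. RNA brought in with the plasma and RNA of the SVF cells cannot be told apart. Over all genes 5.21% were lower and 3.11% higher at an unadjusted p under 0.05 (limma). Whether past that threshold or not, 8381 of 15947 genes were lower and 7566 higher. The part of these cell types in the SFRP1 and FRZB differences was not tested.

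SFRP2, a frizzled-related protein of many fibroblast types, read 5.51 and 5.55 in dog 3 PRP against 5.35 and 5.67 in dog 3 SVF, and 7.20 and 6.72 in dog 2 PRP against 6.91 and 6.25 in dog 2 SVF. PRP and SVF overlapped in both dogs. The mean difference was 0.20 ± 0.19 log2 units (SE, interval -0.25 to 0.65).

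SFRP4, known in human fat as a secreted product of adipose tissue, read 12.02 and 11.78 in dog 3 PRP against 11.99 and 11.82 in dog 3 SVF, and 7.20 and 7.40 in dog 2 PRP against 7.14 and 7.10 in dog 2 SVF. Within a dog the 4 arrays lay close together. The mean difference of PRP minus SVF was 0.09 ± 0.13 log2 units (SE), with an interval of -0.21 to 0.38. For these arrays that leaves out a 2-fold change in either direction. The interval rests on the spread between arrays of one group, which may be technical, and does not cover how dogs vary.

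WIF1, which binds Wnt ligands outside the cell, read 9.69 and 9.41 in dog 3 PRP against 9.80 and 9.94 in dog 3 SVF, and 10.42 and 10.39 in dog 2 PRP against 10.31 and 10.07 in dog 2 SVF. The PRP arrays lay below the SVF arrays in dog 3 and above them in dog 2, an opposite pattern that 1.52% of features shared. The differences were -0.32 in dog 3 and 0.21 in dog 2, and the test of their difference gave an unadjusted p of 0.0794 and an adjusted p of 0.9999 in limma.

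Of the Dickkopf genes, DKK1, the best known inhibitor of LRP5 and LRP6, read 6.06 and 8.37 in dog 3 PRP against 6.13 and 5.90 in dog 3 SVF, and 5.91 and 6.14 in dog 2 PRP against 5.51 and 5.94 in dog 2 SVF. The reading of 8.37 stood alone, and the other 7 lay between 5.51 and 6.14. The mean difference of 0.75 ± 0.45 log2 units (SE) came to 0.17 without dog 3 PRP array 2. With the same-numbered SVF array left out as well, an alternative chosen after the values were seen, it was 0.12.

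DKK2, which blocks or aids Wnt signalling depending on the cell, read 8.48 and 7.79 in dog 3 PRP against 8.62 and 8.20 in dog 3 SVF, and 8.12 and 8.08 in dog 2 PRP against 7.81 and 7.57 in dog 2 SVF. The PRP arrays lay above the SVF arrays in dog 2 and overlapped them in dog 3. The mean difference was 0.07 ± 0.19 log2 units (SE, interval -0.37 to 0.51).

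DKK3, the divergent member, read 9.13 and 9.09 in dog 3 PRP against 9.19 and 9.46 in dog 3 SVF, and 7.58 and 7.87 in dog 2 PRP against 7.81 and 7.65 in dog 2 SVF. The PRP arrays lay just below the SVF arrays in dog 3 and overlapped them in dog 2. The mean difference was -0.11 ± 0.13 log2 units (SE, interval -0.43 to 0.20).

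Taken dog by dog, 0 of the 8 inhibitors passed the adjusted test in dog 3 or in dog 2, and so did 0% of all features in each dog (limma). At an unadjusted p under 0.05 there were 2 in dog 3, against 6.1% of features, and 0 in dog 2, against 4.39%. In dog 3 the PRP and SVF arrays of 4 inhibitors did not overlap, SFRP1, FRZB, DKK3 and WIF1, all lower in PRP, against 33.4% of features in either direction. In dog 2 there were 4 as well, SFRP1 lower and SFRP4, DKK2 and WIF1 higher in PRP, against 35.8% of features in either direction. All genes leaned the same ways. Overlapping or not, 8990 were lower and 6957 higher in PRP in dog 3, and 7402 lower and 8545 higher in dog 2. The median difference over the 8 was -0.24 in dog 3 and 0.19 in dog 2, against -0.04 and 0.02 over all genes.

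**Figure D2:**
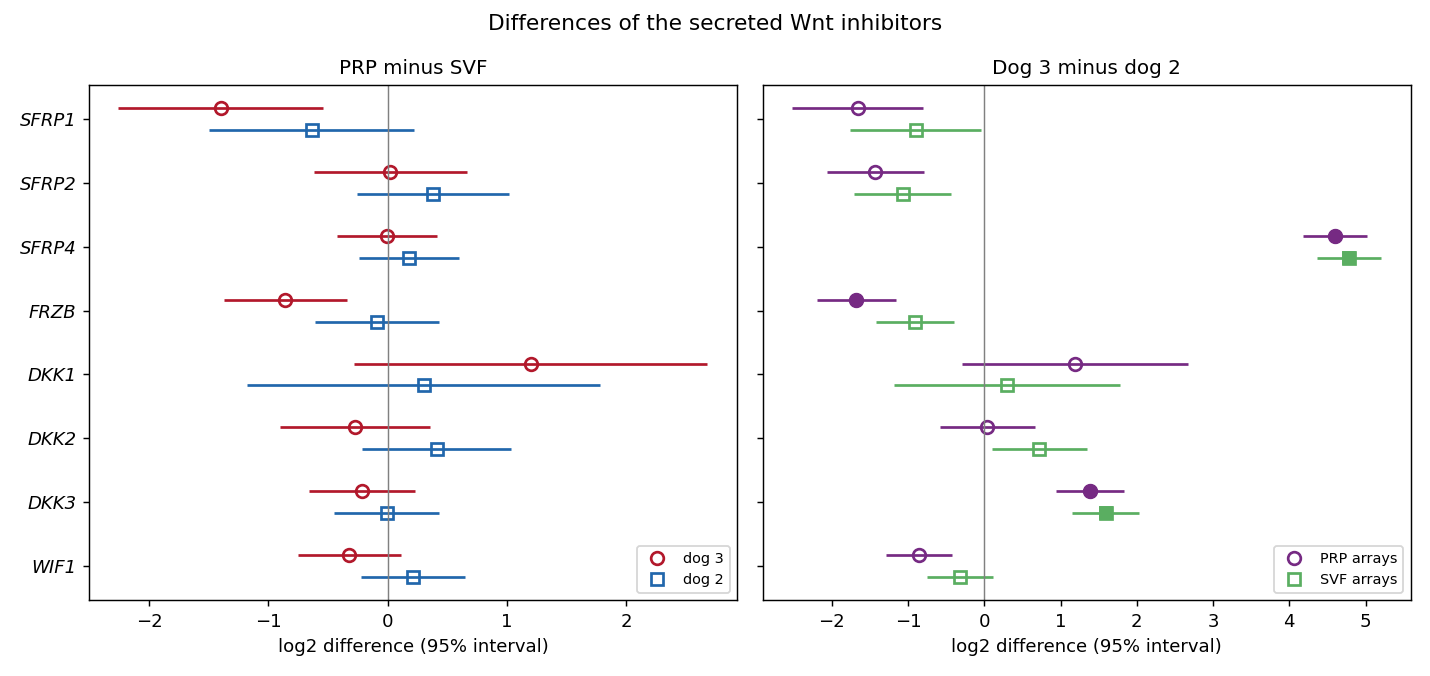
Log2 differences of the 8 inhibitors (horizontal axis) with 95% intervals from limma, PRP minus SVF in each dog on the left and dog 3 minus dog 2 in each condition on the right. Filled symbols passed adjusted p 0.05: none on the left, and SFRP4 and DKK3 in both conditions and FRZB in PRP on the right.

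The second comparison set dog 3 against dog 2 in each condition. In PRP, 3 of the 8 inhibitors passed the test, against 1.92% of features and 2.63% of genes. SFRP4 and DKK3 were higher in dog 3 (0.806% of features) and FRZB was lower (1.11%). In SVF, 2 of the 8 passed, against 1.28% of features and 1.72% of genes. They were SFRP4 and DKK3, both higher in dog 3 (0.71% of features). With the replicate number as a block in the fit, 5 of the 8 passed in PRP and 2 in SVF. The 2 comparisons use different arrays of the same 2 animals, so they do not repeat each other on new dogs.

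SFRP4 averaged 11.90 ± 0.17 in dog 3 PRP against 7.30 ± 0.14 in dog 2 PRP, and 11.91 ± 0.12 in dog 3 SVF against 7.12 ± 0.02 in dog 2 SVF (log2 level, SD, n = 2 each). Every dog 3 array lay above every dog 2 array. The gene was 24.3-fold higher in dog 3 in PRP (limma, 4.60 ± 0.18 log2 units, adjusted p = 0.000487) and 27.6-fold higher in SVF (4.79 ± 0.18, adjusted p = 0.000367). The dog 2 readings of 7.10 to 7.40 lay little above the array medians of the dogs, 6.76 to 6.85. The folds are therefore set against a low level, and their size is less certain. SFRP4 had the smallest p of all features in each condition. Both calls held when any single array was left out. With both number 2 PRP arrays left out, the PRP call was lost at an adjusted p of 0.0898.

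DKK3 averaged 9.11 ± 0.02 in dog 3 PRP against 7.72 ± 0.21 in dog 2 PRP, and 9.33 ± 0.19 in dog 3 SVF against 7.73 ± 0.11 in dog 2 SVF (log2 level, SD, n = 2 each). All 4 dog 3 arrays lay above all 4 dog 2 arrays. It was 2.61-fold higher in dog 3 in PRP (limma, 1.39 ± 0.19 log2 units, adjusted p = 0.0190) and 3.02-fold higher in SVF (1.59 ± 0.19, adjusted p = 0.0165). Each call rests on all 4 of its arrays. Without 1 of them the adjusted p ran between 0.0504 and 0.160 in PRP (lowest without dog 3 PRP array 1, highest without dog 2 PRP array 1) and between 0.0732 and 0.133 in SVF.

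FRZB averaged 10.30 ± 0.30 in dog 3 PRP against 11.98 ± 0.15 in dog 2 PRP, and 11.16 ± 0.26 in dog 3 SVF against 12.07 ± 0.06 in dog 2 SVF (log2 level, SD, n = 2 each). The dog 3 arrays lay below the dog 2 arrays in both conditions. In PRP the gene was 3.20-fold lower in dog 3 (limma, -1.68 ± 0.22 log2 units, adjusted p = 0.0173). The call was lost without dog 2 PRP array 1 (adjusted p = 0.105), dog 2 PRP array 2 (0.117) or dog 3 PRP array 2 (0.0857). In SVF the difference of -0.91 ± 0.22 did not pass (adjusted p = 0.118). The difference between those 2 contrasts is the same quantity as the difference between the PRP responses given above, and it did not pass.

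SFRP1 and SFRP2 lay lower in dog 3 and did not pass the test as fitted, though some alternatives called them in PRP. SFRP1 differed by -1.66 ± 0.37 log2 units in PRP (limma, adjusted p = 0.0804, 0.0343 with the replicate block and 0.0319 with dim features left out) and by -0.90 ± 0.37 in SVF (adjusted p = 0.394). SFRP2 differed by -1.43 ± 0.27 in PRP (adjusted p = 0.0509, 0.0483 with the replicate block, 0.0472 with a trended and robust variance model and 0.0499 with quantile normalization over 11 arrays) and by -1.07 ± 0.27 in SVF (adjusted p = 0.132). In both genes no dog 3 array reached a dog 2 array of the same condition. By group mean, SFRP1 was lowest in dog 3 PRP, then dog 3 SVF, dog 2 PRP and dog 2 SVF, and the middle groups overlapped.

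WIF1 differed by -0.86 ± 0.19 log2 units in PRP (limma, adjusted p = 0.0748, and 0.0328 with dim features left out) and by -0.32 ± 0.19 in SVF (adjusted p = 0.621). DKK2 differed by 0.04 ± 0.27 in PRP and by 0.72 ± 0.27 in SVF (adjusted p = 0.985 and 0.335). DKK1 differed by 1.19 ± 0.63 in PRP (adjusted p = 0.566) and by 0.29 ± 0.63 in SVF (adjusted p = 0.956). Its PRP difference came to 0.036 without dog 3 PRP array 2 and to 2.35, past the test at an adjusted p of 0.0217 in limma, without dog 3 PRP array 1. Across the 8 genes, 6 kept the dogs apart in PRP, against 41.2% of features, and 7 in SVF, against 38.4%. The 6 that did so in both conditions kept one direction, SFRP4 and DKK3 higher and SFRP1, SFRP2, FRZB and WIF1 lower in dog 3, against 18.6% of features.

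Markers of several cell types moved with the dogs as well. Adipose stromal markers were higher in dog 3 in 12 of 12 genes in each condition (1 past the test, PI16, at 1.96 in PRP and 1.81 in SVF). The PI16 call was lost in PRP without dog 2 PRP array 1 or 2 or dog 3 PRP array 2, and in SVF without any 1 of the 4 SVF arrays, at adjusted p up to 0.0762 and 0.114. Their mean level was 11.80 and 11.97 in dog 3 PRP, 11.27 and 11.31 in dog 2 PRP, 11.79 and 11.97 in dog 3 SVF, and 11.20 and 11.33 in dog 2 SVF. Endothelial markers were lower in dog 3 in 10 of 10 genes, 9 of them past the test in PRP and 4 in SVF. Pericyte and smooth muscle markers were lower in 10 of 10, with 8 past the test in PRP and 3 in SVF, and adipocyte markers in 9 of 9, with 5 and 2 past it. Mast cell markers were lower in 5 of 5, with 4 past the test in PRP and 1 in SVF. Mesothelial markers were mixed, lower in 6 of 10 in PRP and 8 of 10 in SVF, with 2 past the test as lower in each. Over all 15947 genes 1.89% passed as lower in PRP and 0.934% in SVF, and 119 and 126 genes passed as higher. Whether past the test or not, 7364 genes were higher and 8583 lower in PRP. In SVF 8362 were higher and 7585 lower. The part of these cell types in the differences of the inhibitors was not tested.

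The rest of the pathway was read from 96 other Wnt genes in 5 lists. Above the array median on all 8 arrays of the dogs lay 5 of 19 ligands and 13 of 16 receptors and co-receptors. So did 12 of 24 other modulators, 19 of 22 transducers and 8 of 15 targets. Many ligands and modulators were thus dim on some arrays, and their levels are less certain. For PRP minus SVF in the mean of both dogs, 0 of 19 ligands, 0 of 16 receptors and co-receptors, 0 of 24 other modulators, 0 of 22 intracellular transducers and 0 of 15 target genes passed the test (limma). At an unadjusted p under 0.05 there were 2, 2, 2, 2 and 1, or 9 of 96, against 8.32% of all genes. The list medians were -0.14, -0.07, -0.09, -0.09 and -0.07 log2 units, against -0.01 over all genes. Lowest in p within their lists were WNT4 (-0.50) and WNT2B (0.42) among ligands and ROR2 (-0.57) and FZD4 (-0.49) among receptors. Next came SFRP5 (-0.42) and IGFBP4 (-0.36) among modulators, TCF7L2 (-0.41) and DAAM1 (-0.37) among transducers, and LBH (-0.43) and LEF1 (0.26) among targets. SFRP5, the remaining frizzled-related gene, is an inhibitor as well and was outside the 8.

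Between the dogs, 6 of the 96 other Wnt genes passed the test in PRP, against 2.63% of all genes, and 4 did in SVF, against 1.72%. They were ligands, modulators and a target gene. The ligand WNT2 read 8.84 and 8.75 in dog 3 PRP against 6.85 and 7.17 in dog 2 PRP, and 9.06 and 9.06 in dog 3 SVF against 6.77 and 7.00 in dog 2 SVF. It was higher in dog 3 than in dog 2 by 1.79 ± 0.19 log2 units in PRP and 2.18 ± 0.19 in SVF (limma, adjusted p = 0.0102 and 0.00704). On dog 2 SVF array 1 it lay below the array median of 6.80. WNT4, another ligand, was higher in dog 3 by 1.84 ± 0.23 in PRP (limma, adjusted p = 0.0139). Its dog 2 PRP readings of 6.61 and 6.28 lay below the array medians of 6.76 and 6.77, so this difference rests on a dim level. In SVF its mean was 8.62 ± 0.08 in dog 3, against 7.12 ± 0.29 in dog 2 (SD, n = 2 each, limma, adjusted p = 0.0311). These were 2 of 19 ligands in each condition, both higher.

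Of 24 modulators, 3 passed in PRP and 2 in SVF, all higher in dog 3. CTHRC1, a secreted collagen-related protein that binds Wnt and frizzled proteins, was higher by 1.81 ± 0.21 log2 units in PRP and 2.11 ± 0.21 in SVF (limma, adjusted p = 0.0111 and 0.0109). TPBG, a membrane protein that dampens Wnt reception, was higher by 1.14 ± 0.18 in PRP and 1.01 ± 0.18 in SVF (adjusted p = 0.0272 and 0.0491). KREMEN1, the cell surface partner of DKK1, was higher by 1.18 ± 0.21 in PRP (adjusted p = 0.0401) and differed by 0.84 ± 0.21 in SVF (adjusted p = 0.124).

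No receptor and no transducer passed in either condition. Of 15 target genes, CCN4, a secreted matricellular protein, passed in PRP. It was lower in dog 3, with a difference of -0.92 ± 0.17 log2 units (limma, adjusted p = 0.0479). In SVF it differed by -0.54 ± 0.17 (limma, adjusted p = 0.236). Its dog 3 PRP readings of 6.55 and 6.52 lay below the array medians, both 6.76, so this call rests on a dim level. The list medians were near 0, between -0.11 and 0.09 in PRP and between -0.07 and 0.19 in SVF, against -0.03 and 0.01 over all genes. As with DKK3, these calls need the arrays they compare. In SVF those of WNT2, WNT4, CTHRC1 and TPBG were each lost without any 1 of the 4 SVF arrays. In PRP those of WNT2, WNT4, CTHRC1, TPBG, KREMEN1 and CCN4 were each lost without dog 2 PRP array 1, dog 2 PRP array 2 or dog 3 PRP array 2. The calls of KREMEN1, CCN4 and, in SVF, TPBG were lost without any 1 of the 8 arrays, that of TPBG in PRP also without dog 3 PRP array 1 or either dog 2 SVF array, and that of WNT4 in SVF also without either dog 2 PRP array. TPBG in SVF also missed the threshold with arrays centred on their medians (adjusted p = 0.0535). The highest adjusted p without 1 array was 0.0922 in PRP and 0.0820 in SVF for WNT2, 0.101 and 0.159 for WNT4, 0.0876 and 0.114 for CTHRC1, and 0.203 and 0.236 for TPBG. It was 0.232 for KREMEN1 and 0.280 for CCN4, both in PRP.

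**Figure D3:**
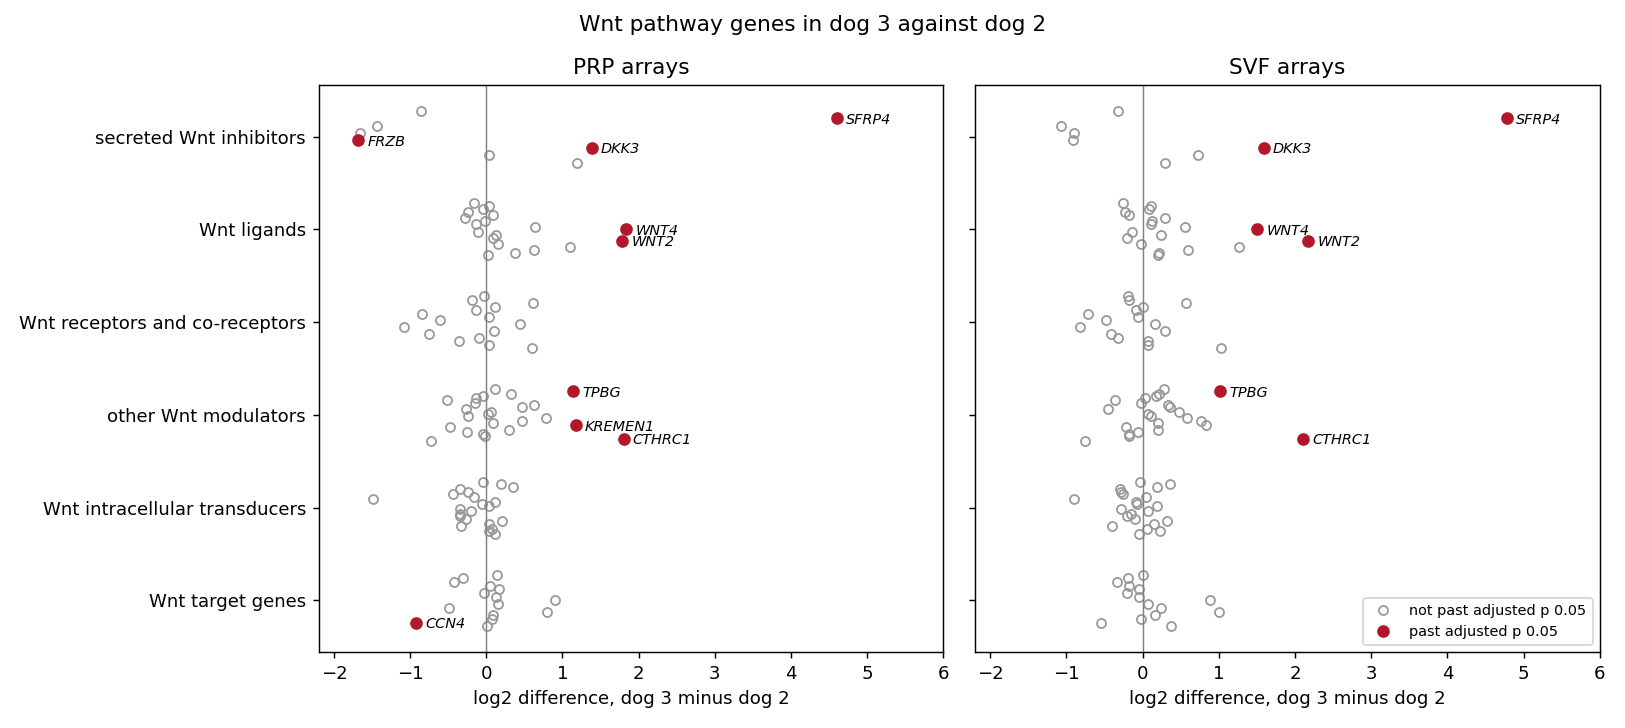
Log2 difference of dog 3 minus dog 2 (horizontal axis) for each measured Wnt pathway gene, by list down the page, in PRP (left) and SVF (right). Each symbol is 1 gene, and filled and named symbols passed adjusted p 0.05 in limma; SFRP4 stands farthest out, at 4.79 in SVF.

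The pattern of a gene over the 8 arrays was then set beside that of every other gene, for the members whose 4 group means spanned at least 1 log2 unit. The measure was the root mean square difference of log2 levels after each gene was centred on its own mean, over 8 arrays that come from 2 animals. It is a description and has no test. The nearest genes were picked for likeness on these same arrays, so a course of levels shared with the member follows from that choice. SFRP1 was nearest to PCK1, an enzyme of glyceroneogenesis, at 0.156, PLIN1, the lipid droplet coat protein of adipocytes, at 0.164, and KANK4 at 0.180. PCK1 read 9.21 and 8.71 in dog 3 PRP, 10.36 and 9.90 in dog 3 SVF, 10.18 and 10.50 in dog 2 PRP, and 11.43 and 10.90 in dog 2 SVF, the same order of group means as SFRP1, with the middle groups overlapping in both.

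FRZB was nearest to ADIPOQ, the gene of the hormone adiponectin, at 0.121, then F11R, a junctional adhesion molecule, and LOC476006, both at 0.14. ADIPOQ read 11.26 and 10.56 in dog 3 PRP, 11.86 and 11.38 in dog 3 SVF, 12.63 and 12.69 in dog 2 PRP, and 12.73 and 12.72 in dog 2 SVF. Like FRZB it was lowest in dog 3 PRP and nearly level in dog 2. PLIN1 and ADIPOQ belong to the adipocyte marker list given above. Being lowest in dog 3 PRP was not particular to adipocyte markers. The endothelial mean was 8.53 and 8.93 in dog 3 PRP, 9.08 and 9.19 in dog 3 SVF, and 10.37 to 10.72 in dog 2. The pericyte and smooth muscle mean was 7.29 and 7.52 in dog 3 PRP and 7.76 and 7.84 in dog 3 SVF. In dog 2 it lay between 8.76 and 9.10. The adipose stromal list went the other way between the dogs.

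DKK1 was nearest to FST, which encodes the activin-binding protein follistatin, at 0.182, ITGB8, an integrin subunit, and TMPRSS7, a membrane serine protease. FST read 7.53 and 9.66 in dog 3 PRP, 7.74 and 7.72 in dog 3 SVF, 7.32 and 7.73 in dog 2 PRP, and 7.21 and 7.21 in dog 2 SVF. As in DKK1, 1 array, dog 3 PRP array 2, sets this likeness.

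**Figure D4:**
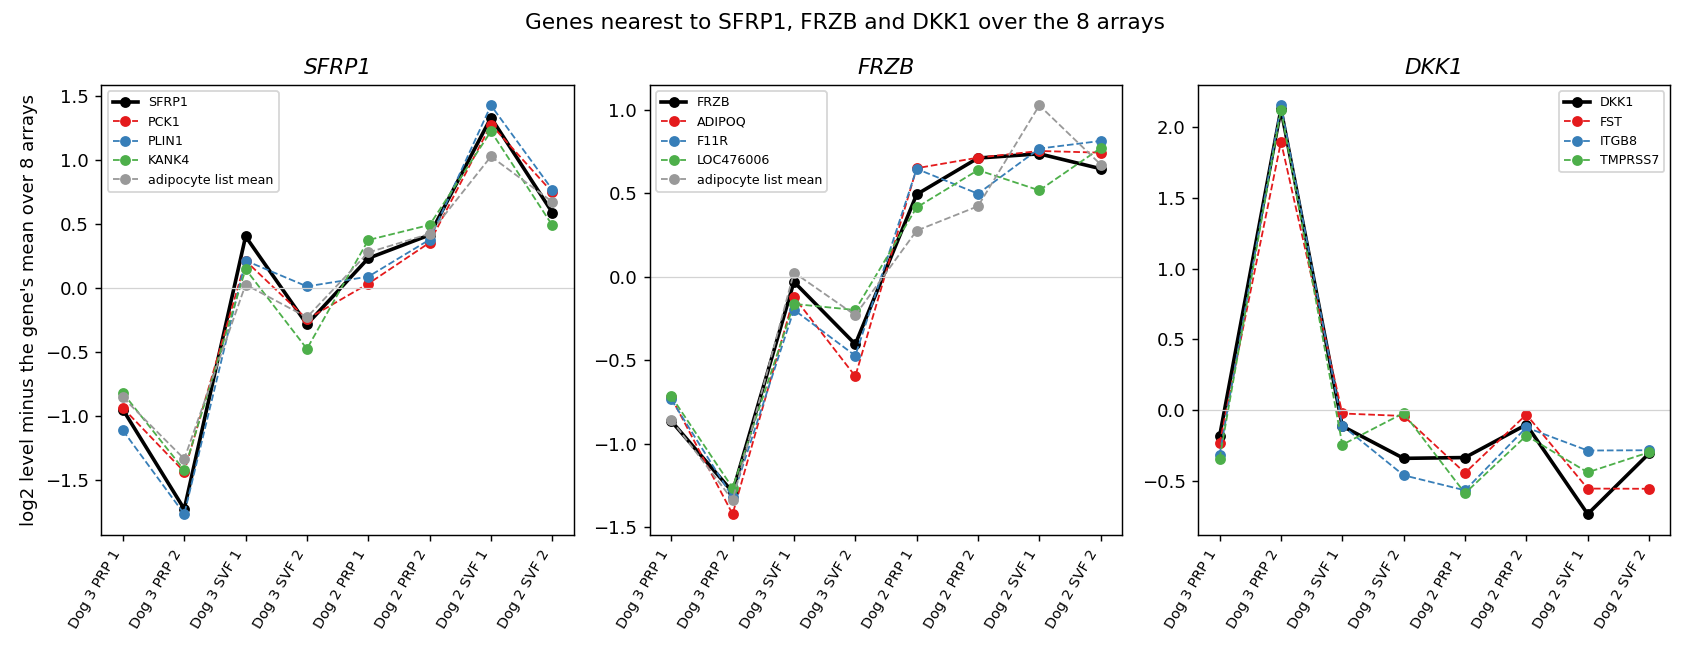
Log2 level minus the gene's own mean over the 8 arrays (vertical axis) for SFRP1, FRZB and DKK1 in black and their 3 nearest genes in colour, by array along the horizontal axis. Grey shows the mean of the adipocyte marker list, which is lowest in dog 3 PRP as SFRP1 and FRZB are. The endothelial and the pericyte and smooth muscle lists, not drawn, are lowest there too. DKK1 peaks at dog 3 PRP array 2. The lines join separate arrays and show no course.

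SFRP4, DKK3 and SFRP2 followed the dogs. The measure is not scaled to a gene's span, which was 4.79 log2 units in SFRP4, so its distances are not set against those of the others. Nearest to SFRP4 were PRG4, the gene of the joint lubricant lubricin, at 0.515, NETO1 at 0.64 and TMEFF2 at 0.76. PRG4 read 10.02 and 9.93 in dog 3 PRP against 5.99 and 5.75 in dog 2 PRP, and 9.94 and 9.77 in dog 3 SVF against 6.56 and 6.04 in dog 2 SVF, so it was high in dog 3 as SFRP4 was. DKK3 was nearest to QPCT and UAP1, both at 0.14, and CA12 at 0.16, and SFRP2 to CLEC12B at 0.14, SLC16A9 at 0.17 and ID1 at 0.20.

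The third comparison set the 3 companies side by side. With 1 array each there is no test and no replicate check, and the values describe these arrays. Array medians differed between the company arrays and those of the dogs, so levels are compared only within each set. Company B differed from company A by at least 2-fold in 6 of the 8 inhibitors, against 12.3% of features and 10.1% of genes. It differed from company C in 5 of the 8, against 11.3% of features and 9.73% of genes. Company C differed from company A by as much in 0 of the 8, against 5.54% of features.

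SFRP4 read 8.76 in company B against 11.79 in company C and 11.65 in company A. Company B was 8.21-fold lower than C and 7.44-fold lower than A. Of all features, 1.23% had a lower difference between B and A.

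SFRP2 went the other way, at 8.17 in company B against 5.72 in company C and 5.94 in company A. It was 5.50-fold higher in B than in C and 4.70-fold higher than in A, and 99.4% of features had a lower difference between B and A. SFRP1 read 4.48 on all 3 arrays, as did 29.5% of features with some identical value, so nothing can be read from it.

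FRZB read 4.78 in company B against 6.88 in company C and 5.94 in company A, and WIF1 read 4.80 in company B against 6.58 in company C and 6.86 in company A. Both were lowest in B, and there both lay below the array median of 5.14, so these folds rest on a dim level. FRZB was 4.28-fold lower in B than in C and 2.23-fold lower than in A, the last at -0.99 log2 units, just under 2-fold, when the arrays were centred on their medians. WIF1 was 3.45-fold lower in B than in C and 4.20-fold lower than in A.

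DKK2 read 5.53 in company B against 6.65 in company C and 6.78 in company A. DKK1 read 5.47 in company B against 4.61 in company C and 4.35 in company A, where it lay below the array medians of 5.25 in C and 5.31 in A and was dim. DKK3 read 7.44 in company B, 7.34 in company C and 6.79 in company A. So DKK2 was lower in B than in both others (2.18-fold and 2.38-fold), DKK1 was higher than in A by 2.17-fold and than in C by 1.81-fold, and DKK3 stayed within 1.57-fold. In 5 inhibitors company B lay at least 2-fold from both others on one side, SFRP2 above and SFRP4, FRZB, DKK2 and WIF1 below, against 7.63% of features. Between companies C and A the farthest apart was FRZB, 1.92-fold higher in C.

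**Figure D5:**
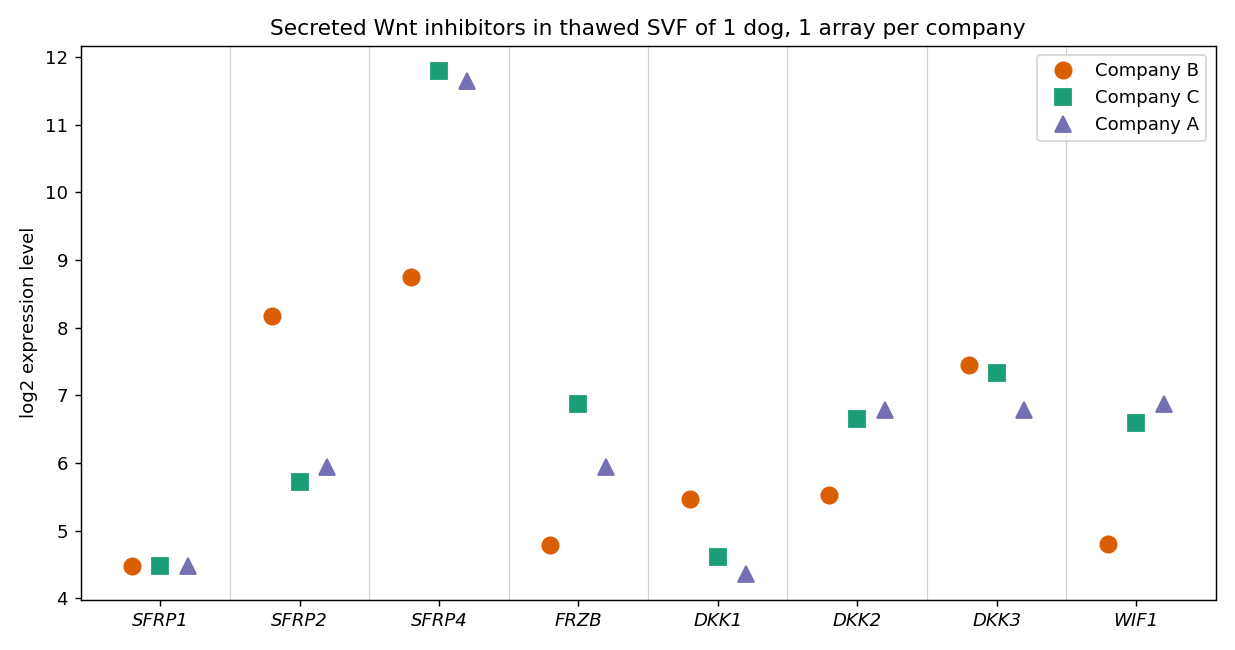
Log2 expression level (vertical axis) of the 8 inhibitors in thawed SVF of 1 dog, with 1 array for each of companies B, C and A. Company B lies apart from both others in SFRP2 (8.17 against 5.72 and 5.94) and in SFRP4 (8.76 against 11.79 and 11.65). In both of these genes C and A lie close together, and they lie farthest apart in FRZB (6.88 against 5.94).

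Other markers set company B apart as well. Of 12 adipose stromal markers, 2 were at least 2-fold higher and 4 at least 2-fold lower in company B than in company A, led by DPP4 at 3.68 and PI16 at -5.42 log2 units. The list's mean level was 10.22 in company B, 11.06 in company C and 11.03 in company A. Against company A, company B was at least 2-fold lower in 5 of 10 endothelial markers, 6 of 8 macrophage markers and 6 of 10 T and NK cell markers, a size of difference that 5.58% of all genes had as lower. Of 10 pericyte and smooth muscle markers 1 was as much lower and 2 were higher, TAGLN at 2.06 and ACTA2 at 1.98, both contractile proteins of smooth muscle, against 4.51% of all genes higher. The part of these cells in the company B values of the inhibitors was not tested.

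Of the 96 other Wnt genes, 8 stood at least 2-fold apart between companies B and A, against 10.1% of all genes, and 7 between B and C, against 9.73%, so their share lay near that of all genes. WNT2 read 5.70 in company B against 8.00 in company C and 7.56 in company A, and WNT11 read 4.88 in company B against 6.54 in company C and 5.94 in company A. These were 2 of 19 ligands, both lower in B, where WNT11 lay below the array median of 5.14 and was dim. RYK, a Wnt receptor, was higher in B than in A by 1.49 log2 units, 1 of 16 receptors. Among 24 modulators TPBG was higher in B than in A by 1.34, and KREMEN1, LGR4 and GPC3 were lower, at -1.0, -1.15 and -1.41. None of 22 transducers reached 2-fold. Of 15 targets CCND1, a cyclin, was higher in B than in A by 1.27 and than in C by 1.21. MYC, a proliferation factor, differed by -2.26 between B and C, by -0.70 between B and A and by 1.56 between C and A, so company C stood apart in it.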

How the data were processed

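Expression was measured in 11 samples. Biotin-labelled cRNA was made from 6 µg of total RNA and read on Affymetrix arrays, per the labels' protocols. The submitters' processing notes name Partek and no version, and the methods of summarisation and normalisation were not given in the sources used here. The deposited values were taken as log2 levels because of their range. Medians differed between the company arrays (5.14 to 5.31) and those of the dogs (6.76 to 6.85). The sets were therefore treated as normalised separately, and no level of one set was compared with the other. The alternative of quantile normalization over 11 arrays did put both sets on one distribution.

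The platform annotation gives 16545 of the 32391 features 1 gene, 370 of them several and 15476 none. Where several features named a gene alone, the brightest on average over the 8 arrays of the dogs stood for it. The identifiers of 15268 of 15947 genes, all 8 inhibitors included, were found in RefSeq's UU_Cfam_GSD_1.0 table. No sequences and no coordinates were used.

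A limma model (version 3.58.1, R 4.3.3) with a mean for each of the 4 groups was fitted to the 8 arrays without any filter, using lmFit and eBayes, which left 4 residual degrees of freedom. P-values were adjusted after Benjamini and Hochberg across the 32391 features and called under 0.05. PRP minus SVF is the mean of both dogs' differences. Intervals are at 95%. Companies were compared by log2 difference and a 2-fold threshold. The fit was tested on simulated data.

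The members, the other Wnt genes and the marker lists were chosen with earlier results of these data known. Named were all 8 members, and from each other Wnt list every gene past the threshold between the dogs and the 2 with the smallest p for PRP minus SVF. Also named were the 3 genes nearest to each member whose group means spanned at least 1 log2 unit, and the most changed marker of a list. The Wnt genes named for company B, other than those, DPP4 beside PI16 and ACTA2 beside TAGLN were chosen after their values were seen, as those at least 2-fold apart.

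Replicate numbers 1 and 2 come from the sample titles. Over genes, deviations of same-numbered arrays from their group means correlated at 0.395 between PRP and SVF in dog 2 and at 0.241 in dog 3. Between the dogs they correlated at 0.597 in PRP and 0.513 in SVF. With 2 arrays in a group, numbers 1 and 2 give one value by construction. The likeness by number was larger between the dogs than between PRP and SVF of a dog, so it does not show that same-numbered samples were pairs. The main fit has no term for the number, and its errors and p-values leave out any pairing. Results with the number as a block are printed beside a call it changed. Other alternatives were the scaling of arrays, a filter on dim features, the variance model, the terms of the model and leaving out each array, where the lone array of a group was assumed to vary like the others.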

Additional observations from a re-analysis of the deposited data

Results flagged for a closer look

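DKK1 on the 4 PRP arrays of the dogs had 1 reading far from the others, 8.37 on dog 3 PRP array 2 against 5.91, 6.06 and 6.14. The gap to the nearest reading made up 0.905 of the whole range, above Dixon's 95% critical value for 4 samples. Chance takes about 1 in 20 groups past that critical value when all 4 readings share 1 normal spread. These 4 come from 2 dogs, so the rate is only a guide. On the 4 SVF arrays DKK1 lay between 5.51 and 6.13.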

How the results depend on the processing

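Of the differences of single genes recomputed under alternatives, 1139 kept their direction and their side of the threshold, 85 lost the call, 7 gained it and 26 changed sign. Apart from DKK1, whose differences rest on dog 3 PRP array 2, none of the differences that changed sign lay farther from 0 than -0.27 as reported. For PRP minus SVF in the mean of both dogs, WIF1 came to 0.019 with arrays centred on their medians, to 0.024 with both number 2 PRP arrays left out and to 0.052 with the dog 3 number 2 pair left out, an alternative chosen after the data were seen; without 1 array it ran between -0.13 and 0.017, and DKK2 between -0.11 and 0.24. In dog 3, SFRP4 came to 0.087 with centred arrays, 0.12 with both number 2 PRP arrays left out and 0.031 with the dog 3 number 2 pair left out, and ran between -0.12 and 0.12 without 1 array. DKK2 there came to 0.075 with both number 2 PRP arrays left out and ran between -0.62 and 0.075 without 1 array, DKK1 came to -0.070 with the dog 3 number 2 pair left out, and SFRP2 ran between -0.14 and 0.18 without 1 array. In dog 2, DKK3 came to 0.047 with centred arrays, 0.035 with quantile normalization over 8 arrays and 0.037 over 11 arrays, and without 1 array ran between -0.15 and 0.14, and FRZB between -0.20 and 0.019. The difference between the dogs' responses came to -0.14 for DKK1 and 0.038 for SFRP4 with both number 2 PRP arrays left out, and ran between -0.26 and 2.05 for DKK1 without 1 array. DKK2 in dog 3 minus dog 2, PRP, ran between -0.31 and 0.39 without 1 array.

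Counts of calls depended on the arrays. For PRP minus SVF, 2 features passed, against 1 in the additive model, with condition alone, with dog as a random block and with the filter on dim features, and 0 with 1 mean per dog and condition, with both number 2 PRP arrays or the dog 3 number 2 pair left out, without any 1 array, and with the replicate block. In dog 2 it was 0, against 1 with the dim filter or the replicate block. For dog 3 minus dog 2 in PRP, 622 features passed, against 0 with both number 2 PRP arrays left out and 3 to 620 without 1 array. In SVF it was 414, against 85 with both number 2 PRP arrays left out, 741 with the dim filter, 652 with the replicate block and 6 to 385 without 1 array. Of the inhibitors, 3 passed in PRP, against 0 with both number 2 PRP arrays left out, 5 with the dim filter, which added SFRP1 and WIF1, 5 with the replicate block and 1 to 3 without 1 array. In SVF 2 passed, against 1 with both number 2 PRP arrays left out and 1 to 2 without 1 array. Among the inhibitors and those named genes that were recomputed with it, the replicate block changed the calls of SFRP1 and SFRP2 in PRP and no other. The dim filter removed DKK1 and SFRP2. At 1.5-fold, 1 inhibitor differed between companies C and A in place of 0. With quantile normalization over 11 arrays, DKK1 in company B against C came to 1.01, past 2-fold, and DKK2 to -0.99, short of it. Centring moved the median PRP minus SVF difference of all features from -0.03 to 0.04. The causes of these changes were not tested. Signal over background was not analysed here. The limit that dimness sets on SFRP2, DKK1 and the dim Wnt genes, or a low dog 2 level on the SFRP4 folds, was therefore not measured.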
